A study of Mus musculus with 12 samples.

Results

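The genes described here are 40 named genes of the cell division cycle, histone genes left out: 16 that serve entry into and passage through S phase, when DNA is copied, and 24 that serve mitosis, when the chromosomes are parted. Each gene was found by its symbol in the probe annotation, and 38 were measured, 15 of the S phase genes and 23 of the mitotic genes, out of 19505 genes with a symbol on the array. Mcm7 and Ccnb1 were not matched and are not analysed here. Each measured gene had 1 probe set, so no choice between probe sets was needed.

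RNA came from Siglec-F+ alveolar macrophages, the resident phagocytes of the air sacs, which were taken from the lungs of male C57 Black mice with magnetic beads carrying an antibody to Siglec-F. The intact group had its whole liver. The other groups had lost 70% of it to resection and were sampled 1, 3 or 7 days later. The groups follow each sample's title and tissue label, and a second treatment text that the labels attach to the samples speaks instead of macrophages kept in culture with other cells or growth factors, so the labels do not agree on the handling of the cells. Each of the 4 groups had 3 biological replicates, for 12 Clariom S mouse arrays in all. The animals' age is not given in the sources used here, nor is it said whether a replicate was 1 animal or a pool, so the p-values measure the spread between these samples. No sham-operated group is among the groups used here, so the operation and the loss of liver tissue cannot be told apart. Values are log2 signals, and a difference of 1 is a doubling of the signal.

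Cells that enter division first raise cyclin E and the transcription factor E2F1, which switches on the genes for origin licensing, the replication machinery and the supply of deoxynucleotides. Later, cyclins A and B with their kinase Cdk1, the Aurora and Polo kinases, the kinetochore and the spindle motors carry the cell through mitosis, and the anaphase promoting complex ends it by marking cyclins and other proteins for destruction. Promoters of S phase genes often carry E2F sites. Those of mitotic genes often carry a CCAAT box, bound by NF-Y, and a cell cycle genes homology region (CHR). The CHR is bound by the DREAM complex, which holds the genes silent in resting cells. Alveolar macrophages are long-lived cells that can renew themselves in the lung by division, with GM-CSF as a main growth signal.

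The promoters of 5 members are printed to show how these motifs are laid out in each class. By rule they were the members, among a fixed set, with the lowest and the highest day 3 difference in each class, Ube2c and Top2a for mitosis and Rrm2 and Pcna for S phase, and Mcm6 was added after the motif counts were seen because it held the most E2F matches. The letters come from RefSeq on build GRCm38.p6, run 5′ to 3′ on the gene's own strand, and hold the 250 bases before the annotated start. Capitals mark a motif. The CHR was searched as TTTGAA and also as TTTAAA, and the CCAAT box by its 5 letters. The E2F core was searched as TTCCCGC, also as TTGGCGC, and besides as TTCGCGC. Each was read on both strands, so that a match on the other strand appears as its reverse complement, and matches on opposite strands can overlap.
Ube2c, chr2:164769679-164769928, plus strand: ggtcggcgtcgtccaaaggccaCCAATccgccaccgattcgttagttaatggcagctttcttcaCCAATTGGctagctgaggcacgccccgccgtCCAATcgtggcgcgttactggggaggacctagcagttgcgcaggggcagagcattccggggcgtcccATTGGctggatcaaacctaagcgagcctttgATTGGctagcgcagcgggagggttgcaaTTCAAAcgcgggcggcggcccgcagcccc
Top2a, chr11:99024190-99024439, minus strand: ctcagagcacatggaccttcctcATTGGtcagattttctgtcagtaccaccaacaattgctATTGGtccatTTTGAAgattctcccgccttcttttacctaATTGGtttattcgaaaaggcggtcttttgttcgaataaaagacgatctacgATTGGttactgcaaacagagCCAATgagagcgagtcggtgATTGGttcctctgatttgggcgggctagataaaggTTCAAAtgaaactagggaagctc
Rrm2, chr12:24708004-24708253, plus strand: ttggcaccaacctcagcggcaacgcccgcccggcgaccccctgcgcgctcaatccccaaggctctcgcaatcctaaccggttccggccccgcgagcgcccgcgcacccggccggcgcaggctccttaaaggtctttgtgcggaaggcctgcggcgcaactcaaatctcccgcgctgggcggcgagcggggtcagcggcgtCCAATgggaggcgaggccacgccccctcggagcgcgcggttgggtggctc
Pcna, chr2:132253181-132253430, minus strand: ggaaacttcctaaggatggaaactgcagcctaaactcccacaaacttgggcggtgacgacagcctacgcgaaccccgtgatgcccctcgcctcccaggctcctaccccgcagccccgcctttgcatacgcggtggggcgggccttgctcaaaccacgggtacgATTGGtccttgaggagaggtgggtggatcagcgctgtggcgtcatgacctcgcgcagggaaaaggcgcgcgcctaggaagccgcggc
Mcm6, chr1:128359706-128359955, minus strand: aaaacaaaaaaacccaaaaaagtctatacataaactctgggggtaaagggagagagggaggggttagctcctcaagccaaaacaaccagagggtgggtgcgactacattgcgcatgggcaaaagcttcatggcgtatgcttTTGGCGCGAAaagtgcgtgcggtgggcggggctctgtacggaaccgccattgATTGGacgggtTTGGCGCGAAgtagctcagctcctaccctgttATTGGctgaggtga
Ube2c, the ubiquitin-conjugating enzyme of the anaphase promoting complex, had 6 CCAAT boxes and 1 CHR, whose first base lay at position -29 from the start. Top2a, the topoisomerase that untangles copied DNA, had 6 CCAAT boxes and 2 CHR matches, at -179 and -23. Mcm6, a subunit of the replicative helicase, showed 4 E2F cores here, in overlapping matches on opposite strands at -109 and -106 and at -46 and -43, and 1 more match lay after the start. Rrm2, a subunit of ribonucleotide reductase, showed 1 CCAAT box at -50, and its CHR match began at position 1, outside the printed bases. Pcna, the sliding clamp of the replication fork, showed 1 CCAAT box at -87.

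The motifs separated the classes by share. A promoter entry was found for 32 of the 38 measured members, 13 S phase and 19 mitotic genes, and Prc1 had more than 1 window, which made 20 mitotic windows. Ccne2, Mcm4, Ccna2, Aurkb, Kif20a and Tpx2 were not matched. Over the 300 bases of each window, which run 50 bases past the start, a CHR occurred in 85% of mitotic windows (17 of 20), 38.5% of S phase windows (5 of 13) and 27.6% of all 32851 windows. A CCAAT box occurred in 80% of mitotic, 53.8% of S phase and 37.4% of all windows. A CCAAT box together with a CHR occurred in 75% of mitotic windows, against 23.1% of S phase and 10.7% of all windows. An E2F core occurred in 46.2% of S phase windows (6 of 13), 10% of mitotic windows (2 of 20) and 8.07% of all windows. Cdc6, Cdt1, Mcm3, Mcm5, Mcm6 and Rrm1 were the S phase genes with an E2F core, and Cdk1 and Mki67 the mitotic ones. Nuf2 and Nusap1, in the mitotic class, and E2f1 and Tyms, in the S phase class, had none of the 3 motifs in this window, which says only that these letters are not there.

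**Figure D1:**
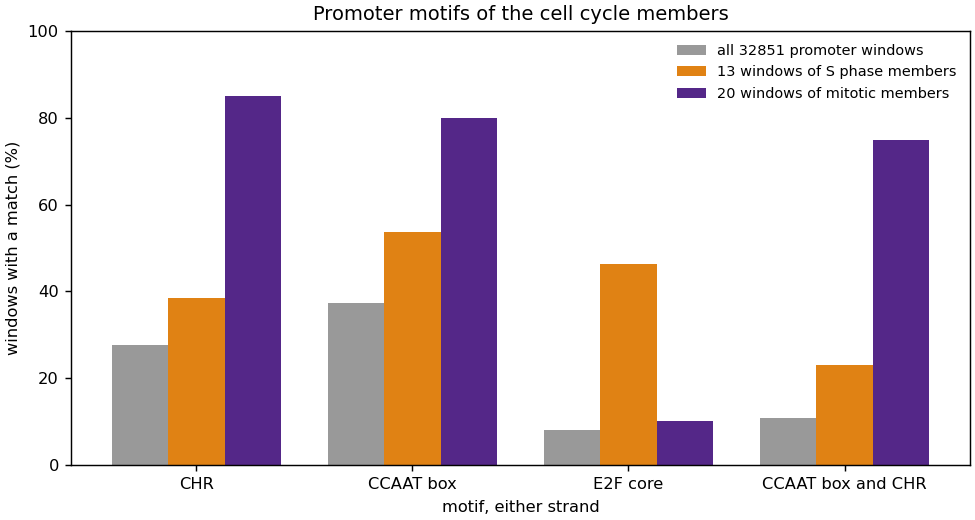
Share of promoter windows (y axis, percent) that hold a CHR, a CCAAT box, an E2F core, or a CCAAT box and a CHR together, on either strand (x axis), for all 32851 windows, 13 windows of S phase members and 20 windows of mitotic members. The mitotic bars stand at 85% for the CHR and 75% for both motifs, while the E2F core is at 46.2% in S phase windows and 10% in mitotic ones.

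The signals of most members were low in every group. On each array the signal that 95% of the intron control probe sets stay under, between 5.01 and 5.69, was taken as the limit of background. Mki67, Kif23 and Pcna lay above it on all 12 arrays, 11 members on some arrays and 24 of 38 (63.2%) on none, against 69% of all probe sets tested on none. A difference between signals under this limit is printed as a difference in log2 signal, not as a fold, since background makes up much of such a signal. In these bulk samples, fewer cells in division and less RNA per cell cannot be told apart.

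Some arrays stood apart before any comparison. Exon and intron controls were separated less well on 3 arrays, replicate 2 of day 1, replicate 1 of day 3 and replicate 2 of day 7 (area under the curve 0.81 to 0.84) than on the others (0.85 to 0.89), and the labelling control dap was high on replicate 1 of day 3 and on replicates 2 and 3 of day 7 (6.47 to 7.77, against 2.13 to 2.89 elsewhere). Of 18 alveolar macrophage markers 16 were measured, and all 16 lay above the background limit on every array. Median differences of these 16 from intact were -0.18, -0.20 and -0.00 at days 1, 3 and 7. Of them 10, 11 and 8 stood lower, where 51.5%, 49.7% and 51.7% of all probe sets did. Among the 5990 probe sets above the limit on at least 3 arrays the medians were -0.207, -0.036 and -0.070. Whether the levels of these markers bear on those of the cell cycle genes was not tested. Mean levels of the 16 spanned 9.12 to 9.53 over the intact arrays, 8.76 to 9.40 for day 1, 8.96 to 9.33 for day 3 and 9.09 to 9.55 for day 7. Markers of other cells also gave signal and differed in level between the groups. On every intact array 6 of 8 type 2 alveolar cell, 6 of 8 endothelial and 8 of 13 neutrophil markers lay above the limit. Their intact means were 6.99, 6.81 and 6.73. On every array of days 1, 3 and 7, 2, 4 and 3 type 2 markers, 0, 2 and 2 endothelial markers and 9, 9 and 9 neutrophil markers did. The 13 neutrophil markers had median differences from intact of 0.89, 0.92 and 1.21 at days 1, 3 and 7, and 6 eosinophil markers -0.47, -0.09 and 0.51. The 8 type 2 alveolar cell markers stood at -1.34, -0.85 and -1.52, the 8 endothelial markers at -1.66, -1.23 and -1.52, the 7 fibroblast markers at -1.28, -1.21 and -1.05 and the 6 monocyte markers at -0.89, -1.0 and -1.0. The 11 T and NK cell markers stood at -0.50, -0.69 and -0.36, the 4 B cell markers, none above the limit on every array of any group, at -0.27, -0.29 and -0.23, and the 4 erythroid markers, likewise under the limit, at -0.11, 0.08 and 0.05. Of these, 1 type 2 cell marker passed the test at day 7, 1 fibroblast marker at day 3 and 2 at day 7, all lower. Among all probe sets tested the calls were 1 at day 3 (0.0045%) and 4 at day 7 (0.018%). The part of the markers of other cells in the results on dividing cells was not tested.

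Over the 4 groups the cell cycle genes stood lower at days 1 and 3 than in intact animals and higher again at day 7. At day 7 the S phase mean was level with intact and the mitotic mean above it. Without replicate 1 of day 7, 14 of 38 members stood above intact at that day, with medians of -0.20 for S phase and -0.01 for mitotic members. The mean over the 15 S phase genes was 4.64 ± 0.21 in intact, 4.32 ± 0.46 at day 1, 4.27 ± 0.06 at day 3 and 4.66 ± 0.35 at day 7 (SD, n = 3). The mean over the 23 mitotic genes was 3.99 ± 0.27, 3.66 ± 0.23, 3.61 ± 0.10 and 4.24 ± 0.42 in the same order. Day 7 had the highest group mean for 24 of 38 members, 17 mitotic and 7 S phase, intact for 12, day 1 for 2 and day 3 for none. Of all probe sets 21.4% had it at day 7, 24.4% in intact, 29.5% at day 1 and 24.8% at day 3. Day 3 had the lowest mean for 19 members (22.8% of all probe sets) and day 1 for 14 (31.2% of all probe sets). No member passed the test in any of the 6 comparisons or in the F test over the 4 groups (limma, Benjamini-Hochberg adjusted p under 0.05 over 22206 probe sets), and the F test called 0.00901% of all probe sets. The smallest adjusted p of the F test among members was 0.232, for Nuf2.

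**Figure D2:**
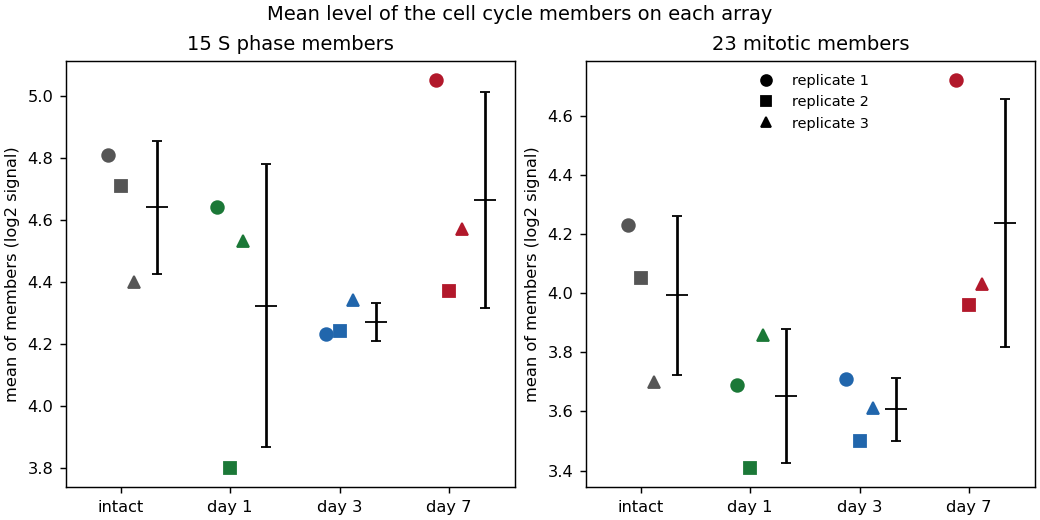
Mean log2 signal (y axis, on a separate scale in each panel) of the 15 S phase members and the 23 mitotic members on each array, by group (x axis); circles, squares and triangles are replicates 1, 2 and 3, and the black bar is the group mean ± SD. The 3 day 3 arrays lie closely together at 4.23 to 4.34 for S phase, and day 7 replicate 1 is the highest array in both panels, at 5.05 and 4.72.

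Cyclin E and E2F1 open S phase. E2f1 read 4.64, 4.52 and 4.41 in intact, 4.05, 2.99 and 3.87 at day 1, 3.39, 4.22 and 4.25 at day 3 and 4.88, 3.82 and 4.41 at day 7. All day 1 and day 3 arrays were under the lowest intact array, and the day 7 arrays spread over the intact range. Ccne2, a cyclin E gene, read 2.52, 2.70 and 2.30 in intact, 2.08, 2.16 and 2.11 at day 1, 2.33, 2.26 and 2.12 at day 3 and 3.14, 2.53 and 2.66 at day 7. Its day 1 arrays were all below intact, and its day 7 arrays were all above those of days 1 and 3. Ccne1, the other cyclin E gene, read 4.52, 4.19 and 3.80 in intact, 3.98, 4.10 and 3.84 at day 1, 4.14, 3.98 and 4.06 at day 3 and 4.27, 4.40 and 3.75 at day 7, and its groups overlapped in every comparison.

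Origin licensing loads the Mcm helicase onto DNA with the help of Cdc6 and Cdt1. Mcm2 read 4.44, 4.31 and 3.75 in intact, 4.68, 2.59 and 4.33 at day 1, 3.00, 3.38 and 4.02 at day 3 and 4.98, 3.58 and 4.35 at day 7. Mcm5 read 4.58, 3.67 and 4.07 in intact, 4.28, 3.50 and 4.62 at day 1, 3.54, 3.80 and 4.02 at day 3 and 4.75, 3.31 and 3.94 at day 7. For both, the spread within day 1 and within day 7 was as wide as the distance between groups. Mcm6 read 5.77, 5.61 and 4.99 in intact, 5.87, 5.04 and 5.57 at day 1, 5.0, 4.10 and 5.06 at day 3 and 6.06, 5.23 and 5.14 at day 7, and its day 3 arrays were all below the day 7 arrays. The 7 licensing genes measured, which also include Cdc6, Cdt1, Mcm3 and Mcm4, differed from intact by -0.73 to 0.04 at day 1, -0.74 to -0.16 at day 3 and -0.11 to 0.20 at day 7. Mcm4 was 2.55 on day 1 replicate 2 against 4.64 and 4.61 on the other day 1 arrays, while its day 7 arrays read 4.77, 4.80 and 4.79.

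Pcna, which holds the DNA polymerase on its template, is also used in DNA repair. It read 9.61, 9.75 and 9.51 in intact, 9.29, 8.54 and 9.26 at day 1, 9.58, 9.48 and 9.50 at day 3 and 9.54, 9.26 and 9.19 at day 7. Only at day 1 were all its arrays below intact. Unlike most S phase genes it stood close to intact at day 3, with a difference of -0.10 ± 0.20 (SE), and its day 3 arrays were all above those of day 1.

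Ribonucleotide reductase (Rrm1 and Rrm2), thymidylate synthase (Tyms) and thymidine kinase (Tk1) supply the building blocks of DNA. Rrm1 read 5.28, 5.30 and 4.88 in intact, 4.67, 4.44 and 5.01 at day 1, 4.47, 4.51 and 4.99 at day 3 and 5.94, 5.09 and 4.82 at day 7. Rrm2 read 5.41, 5.48 and 4.56 in intact, 5.14, 3.35 and 5.64 at day 1, 4.75, 4.50 and 3.92 at day 3 and 6.01, 5.21 and 5.39 at day 7. All day 3 arrays of Rrm2 were below all day 7 arrays, and Rrm1 overlapped. Tyms read 5.41, 5.18 and 5.08 in intact, 5.14, 4.80 and 5.0 at day 1, 4.93, 4.56 and 4.91 at day 3 and 5.07, 4.08 and 4.84 at day 7. Tyms was below every intact array on all arrays of days 3 and 7, at day 7 by a margin within the last digit on replicate 1. Tk1 was the only S phase gene with a positive difference from intact at every day, 0.24, 0.06 and 0.26.

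Cyclins A and B drive Cdk1 into mitosis. Ccnb2, a cyclin B gene, read 5.69, 5.24 and 5.18 in intact, 5.01, 4.80 and 5.02 at day 1, 4.48, 5.05 and 4.91 at day 3 and 6.12, 5.56 and 5.46 at day 7. All its day 1 and day 3 arrays were below the intact arrays and below the day 7 arrays. Cdk1 read 3.14, 3.10 and 2.86 in intact, 3.18, 2.74 and 2.79 at day 1, 2.23, 2.75 and 2.69 at day 3 and 2.66, 2.16 and 2.57 at day 7. Cdk1 was thus below all intact arrays at days 3 and 7 and did not share the day 7 level of Ccnb2. It lay under the background limit on every array, as did E2f1, Ccne2, Aurkb, Birc5, Nuf2, Prc1 and Kif11 among other members. Ccna2, a cyclin A gene, spread from 3.21 to 5.65 within day 7.

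Cdc20 activates the anaphase promoting complex and Ube2c feeds it ubiquitin. Ube2c read 5.45, 5.15 and 3.92 in intact, 3.79, 2.94 and 4.53 at day 1, 3.16, 3.63 and 3.61 at day 3 and 5.51, 4.64 and 3.66 at day 7. Its day 3 arrays lay below every intact and every day 7 array, while intact replicate 3 and day 7 replicate 3 lay well under the other arrays of their groups. Cdc20 differed from intact by -0.02, -0.13 and 0.25 at days 1, 3 and 7.

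Aurkb (Aurora B) and Birc5 (survivin) are partners in the chromosomal passenger complex, which corrects wrong spindle attachments. Aurkb read 4.19, 4.82 and 4.08 in intact, 3.98, 3.85 and 3.92 at day 1, 3.81, 3.68 and 3.88 at day 3 and 4.89, 4.05 and 4.68 at day 7. Birc5 read 4.77, 4.77 and 4.43 in intact, 4.10, 3.01 and 4.16 at day 1, 4.44, 3.68 and 4.39 at day 3 and 4.61, 4.49 and 4.65 at day 7. Both were below every intact array on all day 1 arrays, and Aurkb also on all day 3 arrays. The checkpoint kinase genes Bub1 and Bub1b and the kinase genes Plk1 and Aurka differed from intact by -0.32, -0.56, -0.50 and -0.07 at day 3 and by 0.22, -0.08, 0.17 and 0.40 at day 7.

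Nuf2 and Ndc80 belong to the complex that ties kinetochores to microtubules. Nuf2 read 3.89, 4.04 and 3.44 in intact, 3.55, 3.16 and 3.24 at day 1, 3.46, 3.04 and 3.35 at day 3 and 4.49, 4.48 and 4.10 at day 7. Its day 7 arrays were above all 9 other arrays, but every array lay under the background limit. Ndc80 and the kinetochore motor gene Cenpe stood 0.51 and 0.66 higher at day 7 than at day 3, and Cenpf, another kinetochore gene, -0.01.

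Prc1 bundles the microtubules of the central spindle, the motor Kif23 works there in cytokinesis, and the motor Kif11 pushes the spindle poles apart. Kif23 read 6.06, 5.92 and 5.58 in intact, 5.66, 5.43 and 5.43 at day 1, 6.03, 5.65 and 5.46 at day 3 and 6.54, 6.31 and 6.43 at day 7. Prc1 read 3.33, 3.78 and 2.86 in intact, 3.15, 3.13 and 3.52 at day 1, 3.08, 3.02 and 2.77 at day 3 and 4.30, 3.74 and 4.32 at day 7. For Kif23, day 7 lay above all 9 other arrays, and for Prc1 above all day 1 and day 3 arrays but not above intact replicate 2. Kif11 read 2.76, 2.30 and 2.64 in intact, 2.88, 1.99 and 2.95 at day 1, 3.24, 2.26 and 2.48 at day 3 and 3.95, 3.58 and 3.00 at day 7, where all arrays were above intact and day 1. The other spindle genes, Kif20a, Tpx2 and Nusap1, stood 0.80, 0.50 and 0.75 higher at day 7 than at day 3. Of all these spindle genes only Kif23 lay above the background limit on any array.

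Mki67 codes for the Ki-67 protein, a coat of mitotic chromosomes used as a marker of cycling cells. It read 7.46, 7.25 and 6.47 in intact, 6.74, 6.44 and 6.86 at day 1, 7.28, 5.93 and 6.02 at day 3 and 7.88, 7.55 and 7.49 at day 7. All day 7 arrays were above all 9 others, narrowly so over intact replicate 1 (7.49 against 7.46). At day 3 replicate 1 lay far above replicates 2 and 3. Top2a read 4.51, 4.20 and 4.16 in intact, 4.21, 3.20 and 4.31 at day 1, 4.23, 4.09 and 4.25 at day 3 and 4.92, 4.16 and 4.29 at day 7, and its groups overlapped in every comparison.

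**Figure D3:**
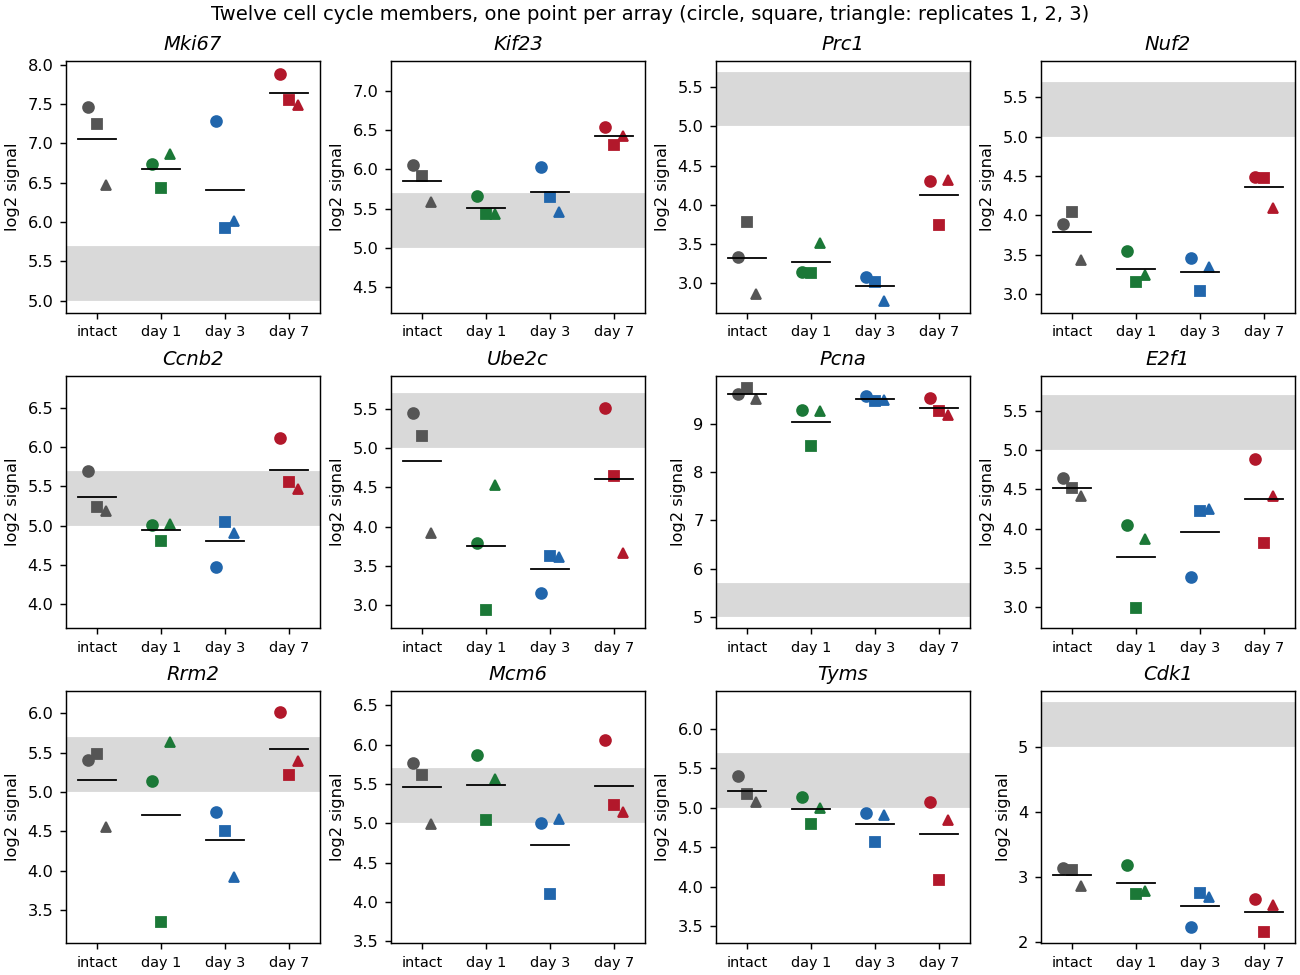
Log2 signal (y axis, a separate scale in each panel) of 12 members on each array by group (x axis); circles, squares and triangles are replicates 1, 2 and 3, the line is the group mean, and the grey band spans the background limits of the arrays, 5.01 to 5.69. Mki67, Kif23 and Nuf2 have their 3 day 7 points above all others, and Cdk1 and Tyms have their day 3 and day 7 points below the intact ones.

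At day 1, 33 of 38 members stood below intact, 12 of 15 S phase and 21 of 23 mitotic, where 51.5% of all probe sets did. The median difference was -0.30 for S phase and -0.38 for mitotic members, against -0.011 over all probe sets. By adjusted p 0 members were called (background 0%). At an unadjusted p under 0.05, 4 members were lower (10.5%, background 5.9%) and none higher (background 3.04%). In 8 members all day 1 arrays lay below all intact arrays (21.1%, background 8.94%). The 3 mitotic genes with the smallest p were Birc5 (-0.90 ± 0.29, adjusted p 0.401), Nuf2 (-0.47 ± 0.20, 0.545) and Ube2c (-1.09 ± 0.51, 0.559), given as log2 difference ± SE with limma's adjusted p. The 3 of S phase were Pcna (-0.59 ± 0.20, adjusted p 0.431, a 1.5-fold lower signal), E2f1 (-0.89 ± 0.33, 0.461) and Ccne2 (-0.39 ± 0.18, 0.561). Replicate 2 of day 1, the array of weakest control separation, was the lowest of all arrays for 15 members (24.1% of all probe sets). Without it 28 members stood below intact, the medians were -0.15 and -0.26, 1 member had an unadjusted p under 0.05 (background 3.75%), and Pcna, E2f1, Birc5 and Ube2c stood at -0.34, -0.56, -0.53 and -0.69. Without intact replicate 1 the mitotic median was -0.19.

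At day 3, 35 of 38 members stood below intact, 14 of 15 S phase and 21 of 23 mitotic, against 49.7% of all probe sets. The medians were -0.32 for S phase and -0.37 for mitotic members, against 0.001. By adjusted p 0 members were called (background 0.0045%). In all 6 members were lower with an unadjusted p below 0.05 (15.8%, background 2.5%), Ube2c, Ccnb2, Nuf2, Aurkb, Cdk1 and Mcm6, and none higher (background 1.96%). In 7 members day 3 did not overlap intact and was lower (18.4%, background 6.68%). The 3 mitotic genes with the smallest p were Ube2c (-1.38 ± 0.51), Ccnb2 (-0.55 ± 0.22) and Nuf2 (-0.51 ± 0.20), and the 3 of S phase were Mcm6 (-0.74 ± 0.34), Rrm1 (-0.50 ± 0.28) and Tyms (-0.42 ± 0.24), with a limma adjusted p of 1 for each. Without the arrays of high dap signal, which at day 3 leaves out replicate 1, 37 of 38 members stood below intact at day 3, and 9 were lower with an unadjusted p below 0.05 (background 3.02%). Without intact replicate 3 the medians were -0.50 and -0.60. Without intact replicate 1 they were -0.26 and -0.34, and 32 of 38 members stood below intact. Without replicate 2 of day 3 Mcm6 stood at -0.43.

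At day 7, 17 of 23 mitotic members and 8 of 15 S phase members stood above intact, together 25 of 38, where 48.3% of all probe sets did. The median was 0.22 for mitotic and 0.02 for S phase members, against -0.009. By adjusted p 0 members were called (background 0.018%). At an unadjusted p under 0.05, 4 members were higher (10.5%, background 1.95%), all mitotic, and 2 lower (5.26%, background 3.74%), Cdk1 and Tyms. In 5 members day 7 lay above intact without overlap (13.2%, background 6.11%), Aurka, Nuf2, Kif11, Kif23 and Mki67, all mitotic, and in 2 below it (5.26%, background 8.15%), Cdk1 and Tyms. The margin was thin for Aurka (lowest day 7 array 3.41, highest intact array 3.40) and Mki67 (7.49 and 7.46). The 3 mitotic genes with the smallest p were Prc1 (0.79 ± 0.24, adjusted p 0.544), Kif23 (0.58 ± 0.19, 0.626, a 1.49-fold higher signal) and Kif11 (0.94 ± 0.33, 0.695), while in S phase the 3 smallest p were those of Tyms (-0.56 ± 0.24, 0.827), Ccne2 (0.27 ± 0.18, 0.999) and Pcna (-0.29 ± 0.20, 1), by limma. Without replicate 2 of day 7 Tyms stood at -0.27, and without replicate 1 Ccne2 stood at 0.09. Without replicate 1, 4 S phase and 10 mitotic members stood above intact and 2 members were higher with an unadjusted p below 0.05 (background 3.19%). Without the 3 arrays of weak control separation 12 S phase and 19 mitotic members stood above intact, and 7 were higher at that p (background 5.29%). That setting keeps replicates 1 and 3 at day 7, so replicate 1 weighs more in it. Without the arrays of high dap signal, which leaves only replicate 1 at day 7, 12 S phase and 21 mitotic members stood above intact. Replicate 1 was the highest of the 12 arrays for 25 of 38 members, so these counts describe that array alone. The difference between the classes was not tested. The 3 comparisons with intact share the 3 intact arrays, so they are not independent of each other.

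**Figure D4:**
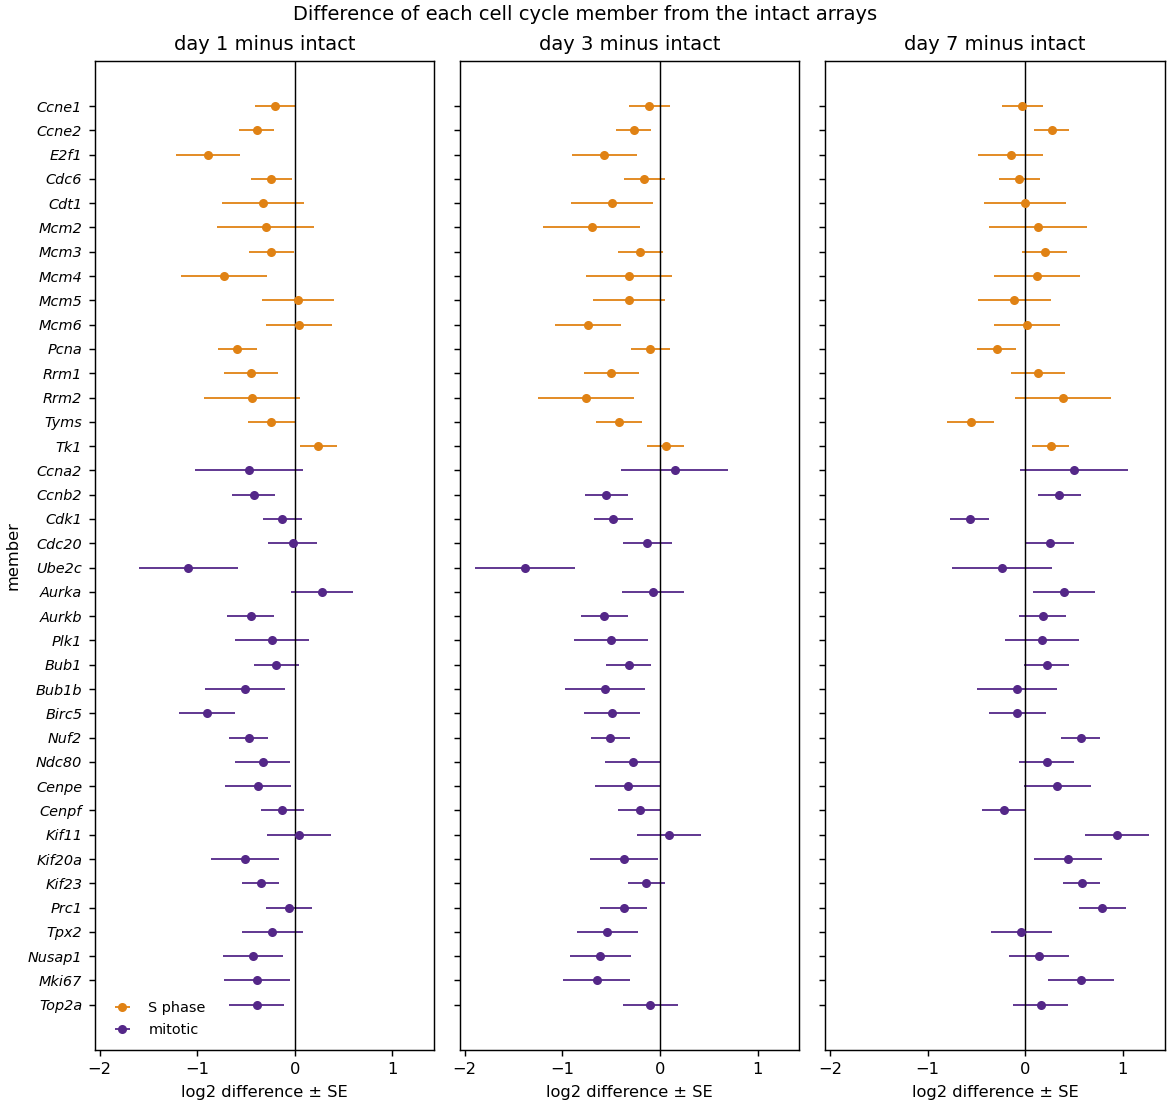
Difference from intact in log2 signal (x axis, point ± SE of the fit) of each member (y axis), S phase members in orange and mitotic members in purple, at days 1, 3 and 7. Most points lie left of 0 at days 1 and 3, with Ube2c at -1.09 and -1.38, and at day 7 Kif11, Prc1, Kif23 and Nuf2 lie right of 0 at 0.94, 0.79, 0.58 and 0.57 while Cdk1 and Tyms lie left at -0.57 and -0.56.

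In the comparison of day 7 with day 3, which leaves out the intact arrays, 34 of 38 members were higher at day 7, against 47.9% of all probe sets, with medians of 0.66 for mitotic and 0.42 for S phase members, against -0.011. By adjusted p 0 members were called (background 0%). At an unadjusted p under 0.05, 15 members were higher (39.5%, background 2.03%), 11 mitotic and 4 S phase, and none lower (background 3.1%). In 16 members all day 7 arrays lay above all day 3 arrays (42.1%, background 4.84%). The smallest p was that of Nuf2, 1.07 ± 0.20 (unadjusted p 0.000187, adjusted p 0.232 by limma). Prc1 stood at 1.16 ± 0.24, Ccnb2 at 0.90 ± 0.22, Kif23 at 0.72 ± 0.19 (1.64-fold), Mki67 at 1.22 ± 0.34 (2.34-fold) and Aurkb at 0.75 ± 0.24, and of S phase Ccne2 stood at 0.54 ± 0.18, Rrm2 at 1.15 ± 0.49, Mcm6 at 0.76 ± 0.34 and Rrm1 at 0.63 ± 0.28. Their adjusted p ran from 0.339, for Prc1, to 0.959, for Mcm6 and Rrm1. These genes were named for their p here, after the values were seen. Without replicate 2 of day 3 Mcm6 stood at 0.45. Pcna, Tyms, Cdk1 and Cenpf were the 4 members not higher at day 7, at -0.19, -0.13, -0.10 and -0.01. Between these days 12 of 16 alveolar macrophage markers stood higher, with a median of 0.18, and so did 11 of 13 neutrophil markers (0.34) and 5 of 6 eosinophil markers (0.86), while 7 of 8 type 2 cell markers stood lower (-0.38), and their part in the result was not tested.

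Replicate 1 of day 7 was the highest of the 12 arrays for 25 of 38 members, 16 mitotic and 9 S phase, where it was the highest for 11.1% of all probe sets, and its dap signal was low, unlike that of the other day 7 arrays. Without it the medians of day 7 against day 3 were 0.33 for mitotic and 0.17 for S phase members, 32 of 38 members stood higher, and 6, all mitotic, were higher with an unadjusted p below 0.05 (background 3.05%). The comparison of day 7 with intact then had 14 of 38 members above 0 and medians of -0.01 for mitotic and -0.20 for S phase members. With any 1 array left out, the lowest differences between days 7 and 3 were 0.95 for Nuf2, 1.06 for Prc1 and 0.70 for Ccnb2. Without the 3 arrays of weak control separation the median of day 7 against day 3 was 0.93 for mitotic and 0.44 for S phase members, and 21 members were higher at an unadjusted p under 0.05 (background 3.77%). That setting drops replicate 2 of day 7 and keeps replicate 1, which then weighs more in the day 7 mean.

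Day 7 against day 1, which shares the day 7 arrays with the comparison above, had 33 of 38 members higher, against 50.3% of all probe sets, with medians of 0.63 for mitotic and 0.33 for S phase members. By adjusted p 0 members were called (background 0%), and 11 were higher with an unadjusted p below 0.05 (28.9%, background 3.81%). In 11 members all day 7 arrays lay above all day 1 arrays (background 4.55%). Nuf2 stood at 1.04 ± 0.20, Kif23 at 0.92 ± 0.19 and Ccne2 at 0.66 ± 0.18, with limma adjusted p of 0.573, 0.573 and 0.663. Without replicate 2 of day 1 the S phase median was 0.10 and 7 members were higher at that p (background 2.59%). Without replicate 1 of day 7 the mitotic median was 0.38, the S phase median 0.18 and the count 6 (background 3.96%). Between days 1 and 3, 23 of 38 members stood lower at day 3, against 49% of all probe sets, with medians of -0.05 and -0.11, and 0 were called by adjusted p (background 0%). At an unadjusted p under 0.05 Pcna was higher at day 3 (0.49 ± 0.20, adjusted p 0.485; 2.63% of members, background 6.32%) and Mcm6 lower (-0.78 ± 0.34, 0.501; background 3.28%). Without replicate 2 of day 1 none was higher (background 4.02%) and 3 were lower, all S phase (background 3.09%), 29 members stood lower at day 3, and the S phase median was -0.27.

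**Figure D5:**
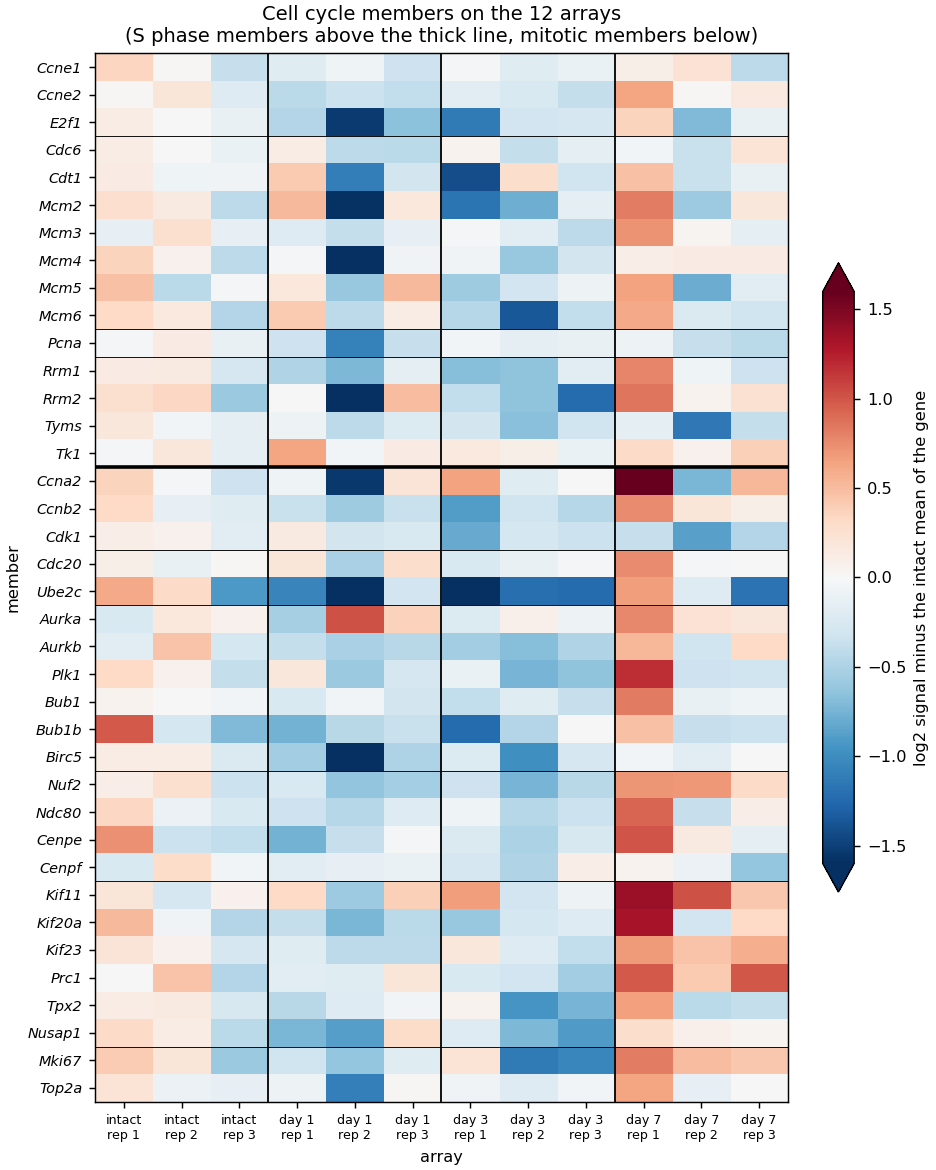
Log2 signal of each member minus its intact mean (colour, red higher and blue lower, drawn at full colour past 1.6, which holds for 6 of 456 cells) on the 12 arrays (x axis), with the members (y axis) ordered by role, S phase above the thick line and mitotic below. Days 1 and 3 are mostly blue, the column of day 7 replicate 1 is red for most members, and the column of day 1 replicate 2 holds the deepest blue, as in Mcm4 and Ube2c.

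The members varied together from array to array, within groups as well as between them. Over the 12 arrays the median Pearson correlation was 0.57 among the 253 pairs of mitotic members, 0.44 among the 105 pairs of S phase members and 0.47 between the classes, against 0.01 between members and other probe sets. After the group means were taken out the medians were 0.42, 0.46, 0.43 and 0.02. All pairs share the same 12 arrays and their quality, so the correlations are a description, and counts of members are not counts of independent genes. The mean of the S phase members minus that of the mitotic members was 0.58, 0.66 and 0.70 in intact, 0.95, 0.39 and 0.67 at day 1, 0.52, 0.74 and 0.73 at day 3 and 0.33, 0.41 and 0.54 at day 7. The 3 day 7 arrays were thus all below the 3 intact arrays in this gap, whose size in itself has no meaning since it compares different probe sets, and day 1 and day 3 overlapped both. The margin was narrow, 0.54 against 0.58. At days 1 and 3 the smallest gaps, 0.39 and 0.52, were those of the weakly separating arrays, and at day 7 the smallest, 0.33, was that of replicate 1. Whether array quality bears on the gap was not tested.

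Genes of the same pathways outside the list split more evenly at day 1. Of 29 other mitotic genes measured, 17 stood below intact at day 1 (median -0.03) and of 24 other replication genes 13 (-0.07), where 51.5% of all probe sets did. Of the mitotic ones 23 stood below intact at day 3 (median -0.16, 49.7% of all probe sets), 25 above intact at day 7 (0.20, 48.3%) and 26 higher at day 7 than at day 3 (0.34, 47.9%). In the last comparison 0 were called by adjusted p and 8 were higher at an unadjusted p under 0.05 (background 2.03%). Kif15, a spindle motor gene, had day 3 signals of 2.19, 2.26 and 2.26 and day 7 signals of 4.31, 3.09 and 3.60, a difference of 1.44 ± 0.28 (limma adjusted p 0.247), and Ect2, which starts the cleavage furrow, differed from intact by 1.08 ± 0.36 at day 7 (0.645). At day 1 the smallest p of the list was that of Racgap1, a partner of Kif23 in cytokinesis, at -1.07 ± 0.25 (limma adjusted p 0.27). Of the 24 replication genes 20 were higher at day 7 than at day 3 (median 0.16, 0 called, 4 at an unadjusted p under 0.05, against the same background shares), with Gmnn, which codes for the licensing inhibitor geminin, at 0.77 ± 0.20 and Mcm10 at 0.60 ± 0.18. Mcm10 stood above intact on all day 1 arrays (0.44 ± 0.18), unlike the Mcm2 to Mcm6 members, which lay between -0.73 and 0.04. Among the 24 replication genes the smallest limma adjusted p was 0.543 at day 1 against intact and 0.662 at day 7 against day 3. At day 1, 1 of the 24 was higher at an unadjusted p under 0.05 (background 3.04%).

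Regulators upstream of division also had 0 calls. Among 18 regulators of G1 and of cell cycle transcription, 13 stood below intact at day 3 (median -0.18, 49.7% of all probe sets) and 13 were higher at day 7 than at day 3 (0.21, 47.9%), led by E2f8, a repressor of E2F targets, at 1.14 ± 0.26 (limma adjusted p 0.494). Of 13 cell cycle inhibitors 11 stood below intact at day 1 (median -0.29, 51.5% of all probe sets), with 3 lower at an unadjusted p under 0.05 (background 5.9%). Among them Cdkn1a, which codes for the Cdk inhibitor p21, read 10.57, 10.46 and 10.42 in intact and 9.76, 9.68 and 10.12 at day 1, a difference of -0.63 ± 0.18 (limma adjusted p 0.348). All its arrays of days 1, 3 and 7 lay below the intact arrays. Of 16 growth signal genes measured, 13 stood below intact at day 1 (median -0.25), against the same share of all probe sets. Most genes of these lists were bright, with 8 of 13 inhibitors and 11 of 16 growth signal genes above the background limit on every day 1 array. Among the 5990 probe sets above that limit on at least 3 arrays, the median at day 1 was itself -0.207. Whether either list stood lower than such bright probe sets was not tested. Myc, a growth-promoting transcription factor, read 6.85, 6.70 and 6.89 in intact, 5.97, 5.57 and 5.84 at day 1, 5.70, 5.65 and 6.35 at day 3 and 7.24, 6.13 and 6.08 at day 7, with differences of -1.02 ± 0.29, -0.92 ± 0.29 and -0.33 ± 0.29 and limma adjusted p of 0.333, 0.843 and 1. Like the cell cycle genes, Myc had its highest array in day 7 replicate 1.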

How the data were processed

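RNA of 12 samples was hybridised to Clariom S mouse arrays. Per the submitters' processing notes, the authors summarised the probes with RMA in Transcriptome Analysis Console, and the deposited numbers fit a log2 scale by their range and like array medians (3.09 to 3.19). RMA corrects background and equalises the arrays' distributions, which compresses differences of dim probe sets. The genome build is not given in the sources used here. Of 28846 probe sets 6640 controls were set aside. The 22206 others were fitted with limma 3.58.1 (R 4.3.3): 1 linear model over all arrays with the group as its term, empirical Bayes moderation, two-sided tests and Benjamini-Hochberg adjustment over all of them, threshold 0.05. The script was tested on simulated data. The 3 arrays a group limit the precision.

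Members and lists were chosen with earlier results of these data known, as were the limits of 0.84 for control separation and 5 for dap. Values on every array are given for fixed members and for the 3 members of each class with the smallest p in each day against intact. Of the other lists (replication, mitosis, G1, inhibitors, growth signals) genes were named from the 3 of smallest p against intact, and genes named for a comparison between days were chosen after their values were seen. Promoter motifs were searched with Python 3.11.15. Alternatives covered moderation, a filter on dim probe sets, normalization, the groups fitted, a replicate block, array weights, averaging of probe sets, the threshold, and leaving out each array or the arrays that stand apart; those on counts and on medians between days were added after seeing the data.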

Additional observations from a re-analysis of the deposited data

How the results depend on the processing

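No member was called in any pairwise comparison under any alternative run. In the F test over the 4 groups, array weights called 4 members (Nuf2, Kif23, Prc1 and Mki67, adjusted p 0.0279 to 0.0394) and leaving out the arrays of weak control separation called 1 (Mki67, 0.0442), by limma. Medians changed by more than the spread between replicates without the arrays that carry the labelling control, where day 7 keeps 1 array that is assumed to vary like the other groups: S phase 0.47 against intact and 0.80 against day 1, mitotic 0.75 against intact, 1.14 against day 3 and 1.03 against day 1, all for day 7. With that control as a block the S phase median of day 7 against intact was 0.37. With each array left out in turn, the mitotic median of day 7 against day 3 ran from 0.33 to 0.78 and members above 0 at day 7 against intact from 14 to 31, both lowest without day 7 replicate 1; the cause was not tested. After the group means were taken out, 3 of 18 pairs of arrays with the same replicate number correlated over 0.1 (range -0.24 to 0.26). Pairs of different number were not compared, so these values cannot tell whether the numbers pair the samples. The fit with a replicate block called 0 members in every comparison, with a smallest adjusted p of 0.342 in the F test. It moved the probe sets called at day 3, at day 7 and in the F test from 1, 4 and 2 to 0, 8 and 0. Those counts were 298, 402 and 472 with array weights (43 at day 1, where none were called, and 7 for day 7 against day 3), 252, 280 and 281 without weakly separating arrays (71 at day 1, 6 for day 3 against day 1, 4 for day 7 against day 3), 5, 8 and 4 at a threshold of 0.1, and 0 in each under the filter on dim probe sets, which kept 5990 probe sets and 11 members. Trend and robust moderation gave 4 at day 3 and 6 in the F test, quantile normalization 4 at day 3, averaging over probe sets 2 at day 3, only the compared groups 0 at day 3 and 48 at day 7, and the fit without labelling control arrays 0 at day 7 and in the F test, with 1 at day 1 when that control was a block. With 1 array left out they ran from 0 to 7 at day 3, 0 to 18 at day 7 and 0 to 8 in the F test. Under the dim filter the median of all probe sets was -0.207 at day 1 against intact, and 0.181 and 0.129 for days 3 and 7 against day 1, where it was -0.011, 0.007 and 0.002 without the filter; members' differences themselves are the same under it. Background limits what can be said of the 24 members under the limit on every array.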
